A study of Mus musculus with 27 samples.

Results

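The Zfp symbols of the mouse are a catalogue of zinc finger proteins, named by a number and not by a function. Of the 24953 genes listed in the RNA-seq table, 362 have a symbol made of Zfp and digits only, and 272 of these reached at least 3 TPM (a level per unit of gene length, scaled so that each library has the same total) in at least 3 of the 9 libraries. These 272 genes are described here. The members were chosen by these RNA values, and so were the genes called lost (under 0.3 TPM in all 3 libraries of 1 line and at or above it in all 6 others) or gained (at least 3 TPM in all 3 libraries of 1 line and under 0.3 TPM in all 6 others), so the lost genes are described without a test.

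The libraries come from mK4, an immortalised cell line of mouse kidney metanephric mesenchyme, and from sub-lines of it made by CRISPR/Cas9, all grown in medium with fetal bovine serum. The control group is the mK4 line itself (genotype WT). The Runx1KO group lacks the third exon of Runx1, which holds the start codon, and the ZebDKO group was targeted at the second exon of Zeb1 and the first exon of Zeb2. Each group has 3 RNA-seq libraries from cultures grown in triplicate. Clones were picked for both knockouts and the number of clones sequenced is not given, so that clone and genotype cannot be told apart, and p-values measure the spread between cultures. ATAC-seq, which maps open chromatin, and ChIP-seq, which maps binding of Runx1 and Runx2, covered control and Runx1KO cells only.

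Most Zfp genes encode proteins with tandem C2H2 zinc fingers, each finger reading a few bases of DNA. The largest group carries a KRAB domain at the start of the protein, which recruits Trim28 and through it histone methylation and heterochromatin, and these genes lie in clusters that grew by local duplication and act chiefly on transposable elements. Other members of the catalogue have quite different work, in mRNA decay, ribosome assembly or actin binding.

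The targeted genes were examined first. TPM counts reads over a whole gene, so the loss of 1 exon need not lower it. Runx1 read 15.6 to 18.7 TPM in control and 28.5 to 30.3 TPM in Runx1KO libraries, and Zeb1 read 14.2 to 15.6 TPM in control and 14.8 to 16.8 TPM in ZebDKO libraries, so neither level checks its label. Zeb2 read 4.9 to 5.5 TPM in control, 1.6 to 1.8 TPM in ZebDKO and 0.2 TPM in each Runx1KO library, where Zeb1 was also at 0.1 to 0.2 TPM. Of 11 metanephric mesenchyme markers 6 reached 1 TPM in control cells, namely Osr1, Pax2, Hoxa11, Sall1, Gdnf and Eya1, while Six2, Wt1, Hoxd11, Cited1 and Meox1 stayed under 1 TPM in every library. Summed epithelial markers read 3.3 to 5.8 TPM in control, 2664 to 2745 TPM in Runx1KO and 1151 to 1210.4 TPM in ZebDKO libraries, most of it the keratin gene Krt8. Of these 10 markers 1 reached 1 TPM in control, 7 in Runx1KO and 6 in ZebDKO cells. Cdh1 and Cldn7 stayed under 1 TPM in every library, and Epcam was at 0 in all Runx1KO libraries. Ovol1 read a mean of 0.73 TPM in both control and ZebDKO cells and 3.0 TPM in Runx1KO cells. The part of these shifts in the Zfp values was not tested, and in bulk cultures fewer cells that express a gene and less RNA per cell cannot be told apart. Of 4 blood markers Ptprc and Hbb-b1 were at 0 in all 9 libraries, Cd3e read 0 to 0.1 TPM and Cd68 read 1.8 to 3.1 TPM. Of 4 endothelial markers only Cdh5 reached 1 TPM. It read 2.8 to 4.4 TPM in control, 1.0 to 1.2 TPM in Runx1KO and 3.6 to 5.5 TPM in ZebDKO libraries. Libraries of 1 line correlated at 0.994 to 0.996 over 13374 genes and those of different lines at 0.912 to 0.927.

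The members spanned a wide range of levels in all lines. Their mean over the 3 lines was under 3 TPM for 11 genes, 3 to 10 TPM for 96, 10 to 30 TPM for 112, 30 to 100 TPM for 50 and at least 100 TPM for 3. The summed level of the 272 genes took 0.669% ± 0.00718 (SD, n = 3) of all TPM in control, 0.655% ± 0.00543 (SD, n = 3) in Runx1KO and 0.536% ± 0.00326 (SD, n = 3) in ZebDKO libraries, and the median member read 16.0, 13.6 and 9.95 TPM in the same order. The ZebDKO libraries thus lay below the others on both measures without overlap. The sums were 6693 TPM in control, 6550 TPM in Runx1KO and 5362 TPM in ZebDKO cells. Zfp36 alone made up 411, 1105 and 939 TPM of them (means, n = 3). Its rise offset a fall of the other members in the sum of Runx1KO cells. The spread between cultures was small, with a median coefficient of variation of 4.7% in control, 4.46% in Runx1KO and 5.81% in ZebDKO cells.

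The 3 members just inside the limit were Zfp112, Zfp41 and Zfp93, for which the third highest value was 3.1 TPM. Just outside it were Zfp667 at 2.9, Zfp324 at 2.8 and Zfp563 at 2.7 TPM. A mean of at least 3 TPM in all 3 lines was found for 216 members (79.4%, against 86.8% of the 12045 genes past the same limit). A further 38 members (14%, against 3% of those genes) had it in control and Runx1KO cells and not in ZebDKO cells. In control alone 7 members had it (2.57% against 1.59%), in Runx1KO alone 4 (1.47% against 2.45%) and in both knockouts alone 2 (0.735% against 2.47%). In control and ZebDKO cells alone 5 had it (1.84% against 1.81%), and in ZebDKO alone 0 (against 1.7%).

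Of the 272 members, 2 were lost in 1 line alone and 0 were gained in 1 line alone. Among the 12045 genes past the same limit, 197 (1.64%) were lost and 37 (0.307%) gained in 1 line alone. By line, the share lost was 0.855% in control, 0.714% in Runx1KO and 0.0664% in ZebDKO cells, and the share gained was 0.0664%, 0.149% and 0.0913%. No member was under 0.3 TPM in all libraries of both knockouts.

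Zfp810, a KRAB zinc finger gene (ENSMUSG00000066829.5), was lost in Runx1KO cells. It read 13.7, 11.9 and 13.0 TPM in the control libraries, was listed at 0 in all 3 Runx1KO libraries, and read 5.4, 4.6 and 4.4 TPM in the ZebDKO libraries. The 3 lines did not overlap, and no other member was listed at 0 in any library. In the second deposited table, a separate quantification of the control and Runx1KO libraries with 2 decimals, Zfp810 read 6.39, 5.51 and 6.17 TPM in control and was again listed at 0 in each Runx1KO library.

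The gene model lies on the minus strand at chr9:22082669-22094985 of mm9 and holds coding exons only, while the RefSeq start site lies further upstream at 22112082. The RefSeq promoter, found by exact match in mm9, and the 200 bases at the summit of the upstream Runx1 ChIP-seq peak are shown because the chromatin data differ there. In the promoter the capital marks the first transcribed base, and in the peak, written on the strand of the gene, the capitals mark the Runx motif TGTGGT.
Zfp810 promoter, chr9:22112033-22112332, minus strand: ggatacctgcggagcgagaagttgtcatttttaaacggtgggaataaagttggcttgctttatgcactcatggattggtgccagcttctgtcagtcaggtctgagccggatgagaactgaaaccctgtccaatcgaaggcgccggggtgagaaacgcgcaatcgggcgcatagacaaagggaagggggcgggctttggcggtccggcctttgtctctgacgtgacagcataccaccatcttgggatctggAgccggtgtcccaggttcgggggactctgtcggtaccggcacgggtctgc
Zfp810 upstream Runx1 peak, chr9:22114093-22114292, minus strand: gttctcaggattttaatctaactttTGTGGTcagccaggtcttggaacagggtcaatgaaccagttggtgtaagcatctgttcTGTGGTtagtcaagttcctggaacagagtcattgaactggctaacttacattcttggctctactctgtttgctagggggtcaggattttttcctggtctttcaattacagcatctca

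An ATAC-seq peak on the authors' list of regions that close in Runx1KO cells ran over this start site, from position -226 to 347 counted from it with negative values upstream (chr9:22111735-22112308). A second closing peak lay at chr9:22114018-22114525, at positions -2443 to -1936, and held a whole Runx1 ChIP-seq peak of control cells (chr9:22114069-22114448) with a fold enrichment of 7.24 over local background. Runx2 peaks of control cells and of Runx1KO cells overlapped it, with fold enrichments of 7.15 and 7.67. Runx1 and Runx2 are paralogous factors that read the same DNA motif. The lists pool replicates, so these folds carry no error and were not compared by a test. The 200 bases shown hold 2 copies of TGTGGT in the direction of the gene, at positions -2185 and -2127, and the whole Runx1 peak holds 3 on either strand. The motif was in 33.5% of the 9977 windows of this length at Runx1 summits, read on both strands, and the Zfp810 promoter itself held none.

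**Figure D1:**
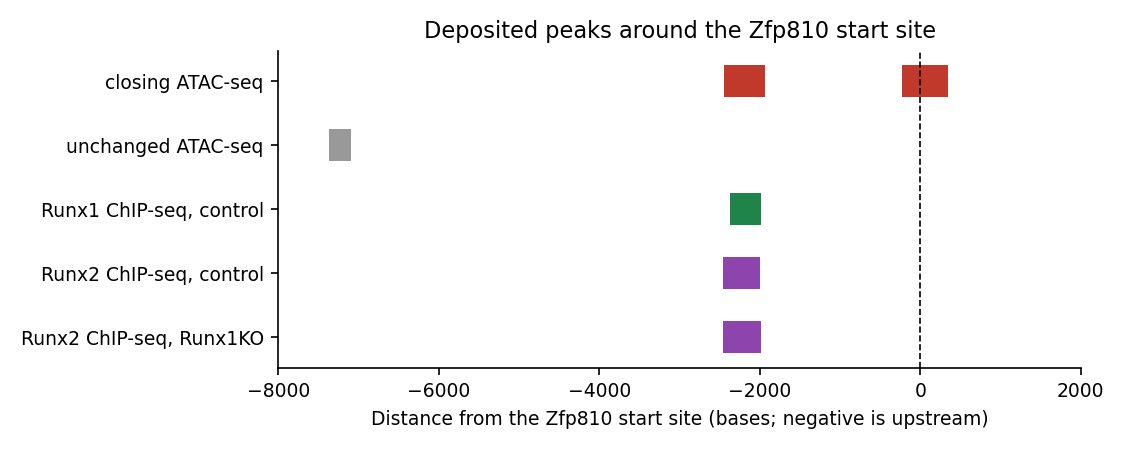
Position of the deposited ATAC-seq and ChIP-seq peaks around the start site of Zfp810, in bases along the strand of the gene, with the start site at 0 (dashed line). Each bar is 1 peak; a closing ATAC-seq peak covers the start site, and another one about 2 kb upstream coincides with the Runx1 and both Runx2 peaks.

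No gene beside Zfp810 that was expressed in control was listed at 0 in Runx1KO cells. Zfp809, a KRAB protein known to silence retroviruses with a proline primer binding site, read 31.0, 29.7 and 28.7 TPM in control and 28.7, 28.2 and 28.1 TPM in Runx1KO cells. On the other side Anln, encoding the cytokinesis protein anillin, read 320 to 331.7 TPM in control and 298.7 to 305.3 TPM in Runx1KO libraries. Neither passed the limit for a call, which was an absolute change over 1 on log2(TPM + 1) with an adjusted p under 0.05 in limma, fitted over all genes and adjusted by Benjamini-Hochberg. Zfp599, the nearest member, read 19.3, 21.4 and 19.8 TPM in control and 11.8, 11.5 and 11.4 TPM in Runx1KO libraries, lower without overlap. Its change of -0.75 ± 0.05 (log2 ± SE, adjusted p of 1.19e-05 in limma) did not reach the limit on size.

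Zfp185 (ENSMUSG00000031351.8), whose protein is a LIM domain protein that binds actin and has no C2H2 finger, was lost in control cells and present in both knockouts. It read 0.1, 0.2 and 0.1 TPM in control, 9.4, 9.2 and 8.9 TPM in Runx1KO and 4.0, 3.9 and 4.1 TPM in ZebDKO libraries. All Runx1KO libraries lay above all ZebDKO libraries, and both groups lay above control. The control values stand at 1 or 2 steps of the table's single decimal, so no fold is given. The gene lies on the plus strand at chrX:70232678-70276882, and an ATAC-seq peak on the list of regions that open in Runx1KO cells covered its start site, from position -580 to 208 (chrX:70232098-70232886). No Runx1 or Runx2 peak lay within 20 kb of the start site. Its RefSeq promoter is shown with the first transcribed base in capitals.
Zfp185 promoter, chrX:70232428-70232727, plus strand: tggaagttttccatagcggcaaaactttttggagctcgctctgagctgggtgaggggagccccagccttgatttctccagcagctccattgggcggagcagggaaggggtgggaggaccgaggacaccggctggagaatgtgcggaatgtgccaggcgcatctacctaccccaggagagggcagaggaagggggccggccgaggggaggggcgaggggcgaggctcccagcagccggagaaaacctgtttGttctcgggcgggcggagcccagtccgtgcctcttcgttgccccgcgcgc

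Some genes beside Zfp185 also stood higher in the knockouts. Pnma5, a gene of the paraneoplastic Ma antigen family, read 57.0 to 59.8 TPM in control, 224 to 238.4 TPM in Runx1KO and 176.1 to 184.5 TPM in ZebDKO libraries, and was called higher in both (1.96 ± 0.03 and 1.61 ± 0.03, log2 ± SE, with adjusted p of 2.03e-08 and 4.75e-08 in limma). Pnma3 of the same family rose by 1.44 ± 0.09 (SE) in Runx1KO cells, with an adjusted p of 7.5e-06 in limma, and differed by 0.84, under the limit, in ZebDKO cells. The sterol synthesis gene Nsdhl on the other side read 69.1 to 74.6 TPM in control and 125.6 to 134.5 TPM in Runx1KO libraries, a difference of 0.84 that did not pass the limit. The promoters and peaks of these neighbours were not examined.

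Several members lay close to the limits of loss or gain without meeting them. Zfp827, whose protein is known for recruiting the NuRD complex to telomeres, read 3.3, 3.1 and 3.8 TPM in control, 0.3, 0.4 and 0.2 TPM in Runx1KO and 6.7, 6.8 and 6.5 TPM in ZebDKO libraries. It fell by 1.76 ± 0.10 (log2 ± SE) in Runx1KO cells. It passed 3 TPM only through control and ZebDKO libraries, so a difference was built into its choice and no p is given. The directions in the knockouts were opposite, and no library of any line overlapped another line. A closing ATAC-seq peak lay 682 bases from 1 of its 7 annotated start sites and an opening peak 647 bases from another. Zfp941, a KRAB gene, read 0.6, 0.2 and 0.4 TPM in control, 7.7, 8.2 and 7.1 TPM in Runx1KO and 31.8, 32.9 and 30.6 TPM in ZebDKO libraries, higher by 2.64 ± 0.12 and 4.56 ± 0.11 (log2 ± SE). It passed 3 TPM through the knockout libraries alone, so no p is given, and its difference from control in ZebDKO cells was the largest increase among the members.

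Zfp979 and Zfp951, both KRAB genes, were high in Runx1KO cells and low in the other lines. Zfp979 read 0.9, 1.4 and 1.1 TPM in control, 12, 13.7 and 10.8 TPM in Runx1KO and 0.5, 0.5 and 0.7 TPM in ZebDKO libraries. Zfp951 read 0.5, 0.6 and 0.4 TPM in control, 5.7, 6.3 and 6.0 TPM in Runx1KO and 0.7 TPM in each ZebDKO library. Runx1KO cells exceeded control by 2.63 ± 0.12 and 2.22 ± 0.08 (log2 ± SE). Both also differed between the knockouts, with ZebDKO against Runx1KO at -3.07 and -2.04 on the log2 scale. Both passed the limit of 3 TPM through the Runx1KO libraries alone, as Zfp976 and Zfp992 did, so that a difference was built into their choice and no p is given. Reads shared with related copies could be split between them, which the stated counting does not settle. The Zfp951 promoter lies under an opening ATAC-seq peak (chr5:105288612-105289453) and is shown in the same way as the others.
Zfp951 promoter, chr5:105289038-105289337, minus strand: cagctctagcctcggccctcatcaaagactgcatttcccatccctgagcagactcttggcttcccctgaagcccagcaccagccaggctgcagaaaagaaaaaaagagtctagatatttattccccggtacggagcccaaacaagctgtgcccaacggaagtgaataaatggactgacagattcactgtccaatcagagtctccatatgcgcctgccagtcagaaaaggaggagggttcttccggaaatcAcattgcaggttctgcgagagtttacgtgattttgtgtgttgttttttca

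**Figure D2:**
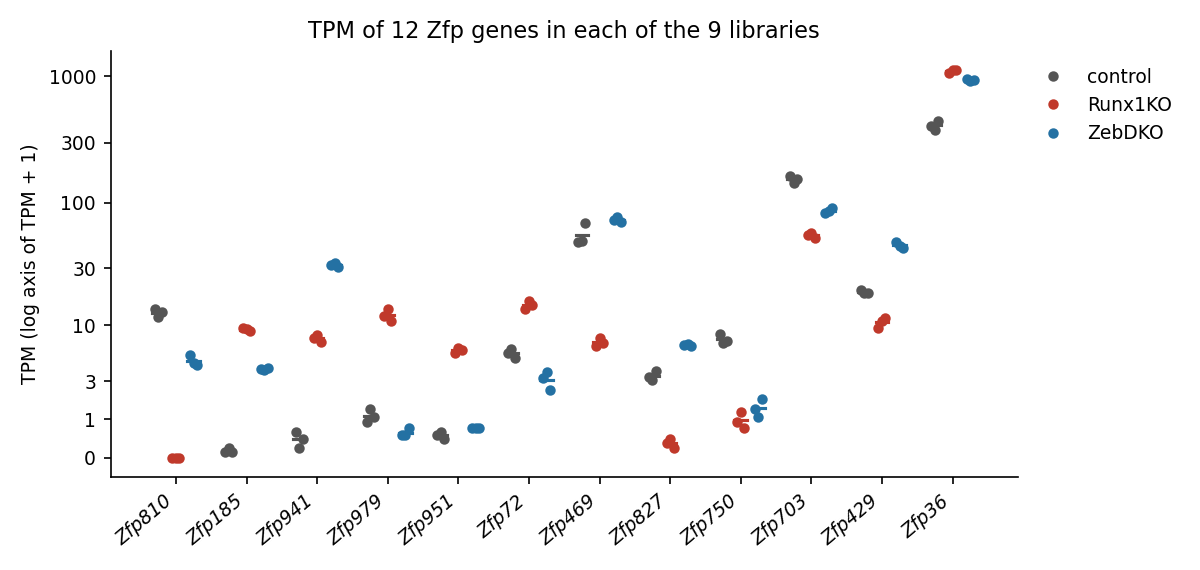
TPM of 12 members in the 9 libraries, on a log axis of TPM + 1. Each point is 1 library, each short line the mean of 3; Zfp810 is at 0 in all 3 Runx1KO libraries, and Zfp185, Zfp941, Zfp979 and Zfp951 are near 0 in control.

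In the comparison of Runx1KO with control cells, 7 members were called higher and 14 lower among 272 tested. Over all 13067 genes tested 7.91% were called higher and 5.1% lower, beside 2.57% and 5.15% of the members. The median change was -0.20 for the members and -0.06 for all genes. At this limit the share called lower was thus near that of all genes, and the share called higher was below it. With a limit of 1.3-fold 34.6% of the members were called lower, against 18.7% of genes, and 8.82% higher, against 18.5%. Median-ratio scaling left 7 higher (8.3% of genes) and 11 lower (4.78%), and correction for GC content left 7 of 265 higher (7.98% of genes) and 11 lower (4.82%). Without overlap between the groups, 159 members (58.5%) were lower, against 42% of genes, and 52 (19.1%) higher, against 31.7%. Besides Zfp185, Zfp941, Zfp979 and Zfp951, the genes called higher were Zfp36, Zfp72 and Zfp976. Of the 7, Zfp185, Zfp941, Zfp979, Zfp951 and Zfp976 passed 3 TPM only through knockout libraries. Of the 14 called lower Zfp108, Zfp202, Zfp287 and Zfp750 passed it through control alone. Zfp658, Zfp810 and Zfp827, also called lower, passed it only through control and ZebDKO libraries. The choice of all these genes made a difference likely, and the counts are a description.

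Zfp36, which encodes tristetraprolin, an RNA-binding protein that speeds decay of mRNAs with AU-rich elements, was the most abundant member in every line. It read 408.5, 377.2 and 447.6 TPM in control, 1073, 1121.9 and 1121.5 TPM in Runx1KO and 956.1, 914.5 and 946.2 TPM in ZebDKO libraries. The rise was 1.43 ± 0.06 in Runx1KO and 1.19 ± 0.06 in ZebDKO cells (log2 ± SE, adjusted p of 1.14e-06 and 1.85e-06 in limma). Its protein binds RNA through CCCH fingers, not C2H2 fingers. Zfp72 read 5.6, 6.1 and 5.1 TPM in control and 13.8, 16.1 and 15.0 TPM in Runx1KO libraries.

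Among the genes called lower in Runx1KO cells after Zfp810, the largest difference was in Zfp469, which encodes a very long protein whose human counterpart is mutated in brittle cornea syndrome. It read 49.1, 49.4 and 69.1 TPM in control, 6.5, 7.7 and 7.0 TPM in Runx1KO and 73.2, 77.3 and 70.2 TPM in ZebDKO libraries. It fell by 2.80 on the log2 scale (SE 0.14, adjusted p of 2.43e-06 in limma), and control replicate 3 stood above the other 2 control libraries. Zfp750, a regulator of epidermal differentiation, read 8.4, 7.0 and 7.3 TPM in control and 0.7 to 1.3 TPM in Runx1KO libraries, with 1.1 to 1.9 TPM in ZebDKO libraries. Zfp703, a corepressor of the Nlz family, read 164.6, 143.3 and 154.4 TPM in control, 56.0, 57.6 and 52.6 TPM in Runx1KO and 82.7, 85.9 and 91.0 TPM in ZebDKO libraries, a difference of -1.46 ± 0.06 and -0.82. Zfp658, Zfp202 and Zfp108 complete the 8 largest falls, at -1.34, -1.34 and -1.30.

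The deposited peak lists hold no values per replicate, so they were read as counts. A closing ATAC-seq peak lay within 1000 bases of a start site of 5 of 270 members with a position (1.85%), against 4.2% of the 12575 genes tested with a position. An opening peak lay there for 8 (2.96% against 6.66%) and a peak on neither list for 239 (88.5% against 83.6%). The members with a closing peak were Zfp810, Zfp827, Zfp365, Zfp316 and Zfp644, 2 of the 5 being called lower, against 43.2% of the 528 genes with such a peak. The changes of RNA were -1.76 for Zfp827, -0.97 for Zfp365, -0.80 for Zfp316 and -0.01 for Zfp644. Those with an opening peak were Zfp185, Zfp951, Zfp976, Zfp652, Zfp418, Zfp345, Zfp275 and Zfp827. Of these, 3 were called higher and Zfp827 lower, against 50.5% and 1.55% of the 838 genes with such a peak, while the other changes ran from -0.14 for Zfp275 to 0.88 for Zfp652. Runx1 peaks lay at the start sites of 52 members (19.3%, against 20.4% of genes), and 0 of these were called higher and 1 lower in Runx1KO cells, against 3.27% and 2.92% of the 2570 genes with such a peak. Runx2 peaks lay there for 121 members in control and 133 in Runx1KO cells (44.8% and 49.3%, against 49.1% and 51.7% of genes).

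In ZebDKO cells the Zfp genes were lower as a group. Of 270 members tested, 84 were called lower (31.1%) and 5 higher (1.85%), against 7.27% and 7.48% of the 12974 genes tested. The median change was -0.73 for the members and -0.18 for all genes. All 3 ZebDKO libraries lay below all 3 control libraries for 227 members (84.1%, against 53.3% of genes) and above them for 21 (7.78%, against 27.7%). The 38 members that reached 3 TPM in control and Runx1KO cells alone and the 7 that did so in control alone had to be low in ZebDKO cells, so counts over all members are a description. The comparison uses the same control libraries as that of Runx1KO cells. Rescaling each library by the median ratio, which sets the median of all genes to 0.00, left 60 members called lower (22.2%, against 5.09% of genes) and 5 higher (9.12% of genes), with a member median of -0.55.

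The change in ZebDKO cells also moved with the GC content of the transcript across all genes. Over 10754 genes past the member limit, the change and the GC content had a Spearman correlation of 0.40, a description across genes, which share libraries and base composition and are not replicates. The same correlation was 0.10 in Runx1KO cells. The members are poor in GC, with a median of 45.7% against 50.8%. When those genes were split by GC content into 5 groups of equal size, the member median lay below that of all genes in each, at -0.93 against -0.49 in the group poorest in GC (124 tested members) and then at -0.76 against -0.31 (43 members), -0.44 against -0.15 (35 members), -0.25 against -0.02 (18 members) and -0.46 against 0.09 (43 members). When each library was corrected for GC content, 32 of 263 members were called lower (12.2%, against 4% of genes), all of them among the 84, and 6 higher (8.12% of genes). The part of GC content in the fall was not tested beyond this correction. The sample labels do not say whether the ZebDKO libraries were prepared or sequenced with the others. A difference of that kind cannot be told apart from genotype.

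**Figure D3:**
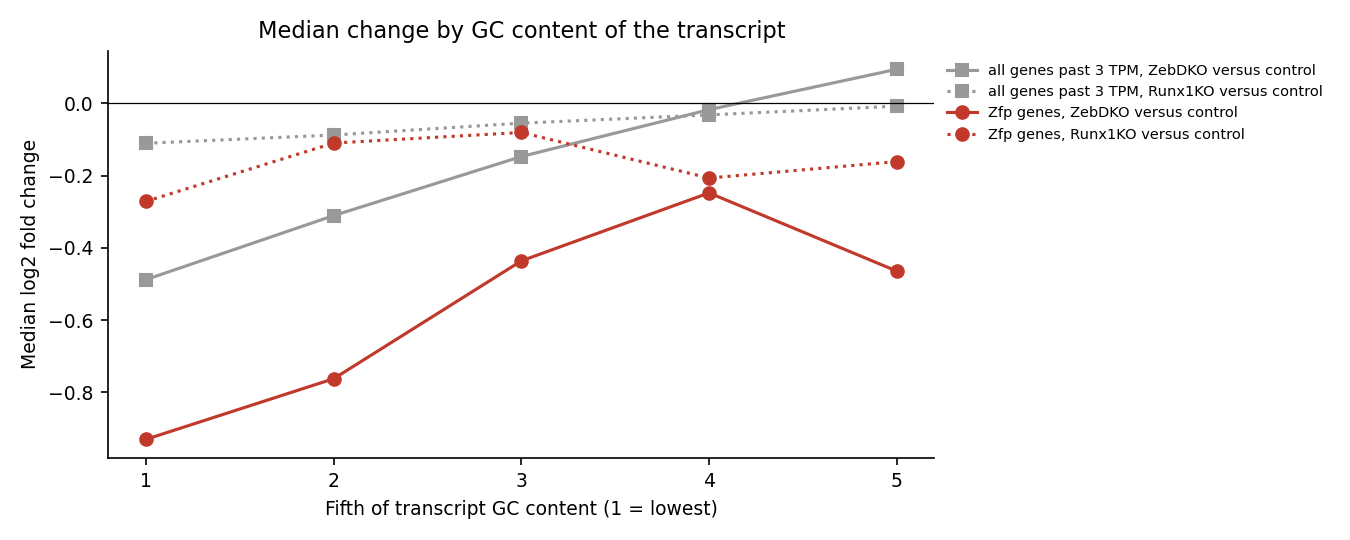
Median log2 fold change over control (vertical axis) of the Zfp members and of all genes past 3 TPM in 3 libraries, in 5 equal groups of those genes by transcript GC content, for ZebDKO (solid) and Runx1KO (dotted) cells. In ZebDKO cells the member medians run from -0.93 in the group poorest in GC to -0.25 in the fourth and lie below the medians of all genes in each.

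Level moved with the fall too. Of the 165 members with a mean over lines of at least 10 TPM, 33 were called lower in ZebDKO cells (20%, against 4.57% of genes at that level), with a median of -0.60 against -0.17. Of 105 tested members of lower level, 51 were called lower (48.6%, against 15.8% of genes), with a median of -0.99 against -0.30. The mean over lines includes the ZebDKO values, so a fall in ZebDKO cells itself lowers it. Part of the difference between levels thus follows from the grouping and from the choice of members, and it is a description.

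The largest fall in ZebDKO cells was that of Zfp365, which encodes a protein of the centrosome and of neurites with no C2H2 pattern. It read 42.9, 43.8 and 41.3 TPM in control, 23.0, 20.1 and 20.7 TPM in Runx1KO and 8.8, 9.0 and 7.0 TPM in ZebDKO libraries, and fell by 2.24 on the log2 scale (SE 0.09, adjusted p of 6.47e-07 in limma). The lines did not overlap, with Runx1KO cells between the others. Zfp503, a corepressor of the same Nlz family as Zfp703, read 5.4 to 5.8 TPM in control, 4.6 to 4.9 TPM in Runx1KO and 0.6 to 1.0 TPM in ZebDKO libraries. The KRAB genes Zfp937, Zfp39, Zfp991, Zfp759, Zfp157 and Zfp970 complete the 8 largest falls, from -2 for Zfp937 to -1.81 for Zfp970. Zfp759, Zfp970 and Zfp991 lay above control in all Runx1KO libraries and below it in all ZebDKO libraries, with 5.2 to 5.9 TPM in control, 9.4 to 10.3 TPM in Runx1KO and 0.8 to 0.9 TPM in ZebDKO libraries for Zfp759. All 8 kept their call after correction for GC content.

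The 5 genes called higher in ZebDKO cells were Zfp941, Zfp185, Zfp36, Zfp429 and Zfp622, of which Zfp941 and Zfp185 passed 3 TPM only through knockout libraries, so that their direction follows from the choice. Zfp36, Zfp429 and Zfp622 kept the call after correction for GC content. Zfp429, a KRAB gene, read 20, 18.9 and 18.6 TPM in control, 9.4, 11.0 and 11.6 TPM in Runx1KO and 49.2, 45.2 and 43.5 TPM in ZebDKO libraries. It rose by 1.22 ± 0.06 in ZebDKO cells (log2 ± SE, adjusted p of 1.37e-06 in limma) and was lower in Runx1KO than in control cells in every library. Zfp622, which works in the maturation of the large ribosomal subunit, read 62.8, 66.2 and 66.2 TPM in control, 72.7, 70.1 and 73.9 TPM in Runx1KO and 144.1, 149.0 and 155.8 TPM in ZebDKO libraries, a rise of 1.19 ± 0.04.

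The knockouts were also set against each other. Relative to Runx1KO cells, ZebDKO cells had 46 of 272 members lower (16.9%) and 8 higher (2.94%), against 9.2% and 6.59% of 13071 genes, and the medians were -0.51 and -0.15. Correction for GC content left 22 of 265 lower (8.3%, against 6.45% of genes) and 9 higher (7.12% of genes). Median-ratio scaling left 32 lower (11.8%, against 6.95% of genes) and 9 higher (8.09% of genes). Quantile normalization left 28 of 272 members lower, against 907 of 13071 genes. Without overlap between the knockouts, 204 members (75%) were lower, against 51% of genes, and 39 (14.3%) higher, against 30.7%. The 8 higher members were Zfp469, Zfp827, Zfp810, Zfp429, Zfp941, Zfp456, Zfp658 and Zfp622. The 8 with the largest fall were Zfp979, Zfp759, Zfp970, Zfp991, Zfp951, Zfp369, Zfp536 and Zfp72. A mean of at least 3 TPM was found in control and Runx1KO cells and not in ZebDKO cells for 38 members. In Runx1KO cells alone it was found for 4. All 8 but Zfp72 are among these members. Their choice made a fall in ZebDKO cells likely, so the counts over all members are a description. Zfp536, a repressor of neuronal differentiation, read 2.9 to 3.8 TPM in control, 4.1 to 5.5 TPM in Runx1KO and 0.2, 0.5 and 0.6 TPM in ZebDKO libraries, the lowest mean of any member in that line.

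Proteins were read from coding models for 265 members. A KRAB pattern was found in 144 of them and not in 121, a SCAN pattern in 10, and no C2H2 pattern in 10, among them Zfp36, Zfp185, Zfp365, Zfp503, Zfp703 and Zfp750. A KRAB domain that departs from the fixed pattern, or that the coding models lack, is counted here among the others. The KRAB members had a median of 12 C2H2 fingers and the others of 7. In ZebDKO cells 58 of 142 KRAB members were called lower (40.8%) with a median of -0.92, and 22 of 121 others (18.2%) with a median of -0.50. Of all genes tested 7.27% were called lower, with a median of -0.18. The KRAB members were also poorer in GC, with a median of 41.8% against 51.5%. In the group poorest in GC the medians were -0.98 for 94 tested KRAB members and -0.69 for 30 others, in the second -0.76 for 23 and -0.75 for 20, and in the third -0.97 for 17 and -0.27 for 18. In the fourth they were -0.19 for 3 and -0.30 for 15, and in the group richest in GC -0.50 for 5 and -0.46 for 38, so the gap was not seen in each group. In Runx1KO cells the medians were -0.29 and -0.10. There 4 and 3 members were called higher (2.78% and 2.48%, against 7.91% of all genes) and 7 and 7 lower (4.86% and 5.79%, against 5.1%). The KRAB domain was not used by the rule, and no test of the difference between these groups was made.

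**Figure D4:**
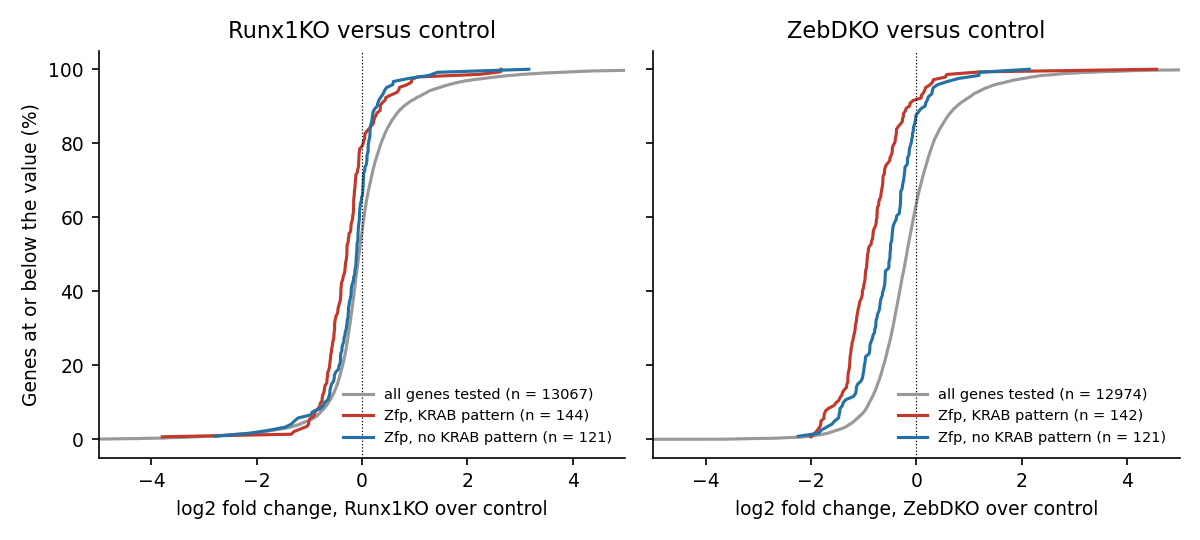
Cumulative share of genes (vertical axis, %) at or below each log2 fold change on log2(TPM + 1), for all genes tested and for Zfp members with and without a KRAB pattern. In ZebDKO cells both Zfp curves lie to the left of that of all genes, the KRAB curve furthest with a median of -0.92.

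Members were placed on the genome to see whether neighbours moved together. Of 270 members with a position, 66 lie on chromosome 7, 34 on chromosome 17 and 21 on chromosome 13. There were 14 runs of at least 4 members with gaps of at most 200 kb, holding 91 members. In ZebDKO cells the median of every run was below 0, from -1.27 to -0.35, and 13 runs had no member above 0, the exception being the run on chromosome 13. Members in no run moved in much the same way. Of the members in runs, 89 of 91 lay below 0 and 28 were called lower (30.8%), with a median of -0.76, and of those in no run 152 of 177 lay below 0 and 55 were called lower (31.1%), with a median of -0.67. Among all genes 8264 of 12974 lay below 0. No test of runs against the rest was made. Neighbouring paralogs can share reads, so single values inside a run are uncertain.

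The run on chromosome 13 (chr13:67139530-67856165, 12 members from Zfp712 to Zfp85, 11 with a KRAB pattern) was the longest and held both directions. In ZebDKO cells 6 of its members were called lower and Zfp429 higher, and Zfp456 read 7.3, 8.2 and 8.6 TPM in control, 3.2, 3.7 and 3.2 TPM in Runx1KO and 12.7, 13.0 and 11.7 TPM in ZebDKO libraries. Zfp759 in the same run fell by 1.86 on the log2 scale. The Zfp429 and Zfp456 values were ordered alike, lowest in Runx1KO and highest in ZebDKO cells, in all libraries. The run on chromosome 2 (chr2:149940142-150310827, Zfp120, Zfp937, Zfp442 and Zfp345) lay lowest against Runx1KO cells, with a median of -1.36 and 3 of 4 members called lower. The run with Zfp810 (chr9:21859904-22094985) also holds Zfp653, Zfp809 and Zfp599, and in ZebDKO cells Zfp809, Zfp599 and Zfp810 were called lower, at -1.16, -1.12 and -1.26. None of the 3 passed the limit after correction for GC content, at -0.79, -0.66 and -0.96, and with median-ratio scaling only Zfp810 passed it, at -1.08.

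**Figure D5:**
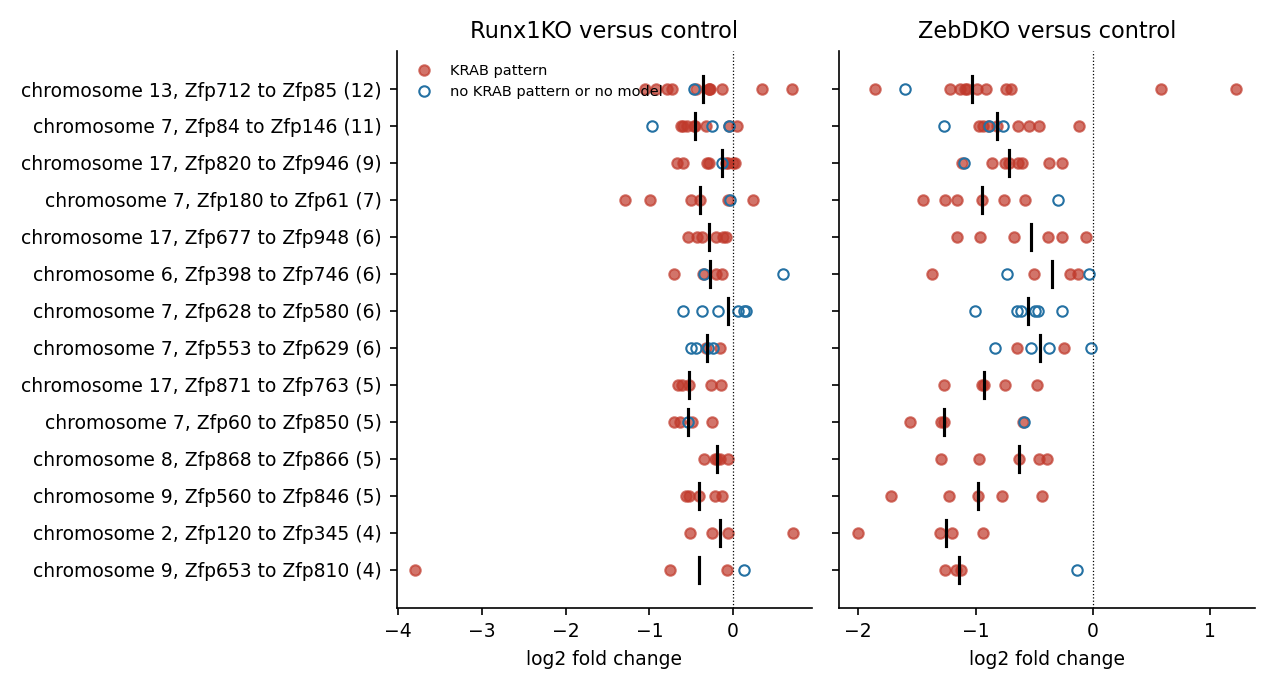
Log2 fold change over control (horizontal axis) of each member in the 14 runs, named by chromosome, first and last member and number of members, in Runx1KO (left) and ZebDKO (right) cells. Each circle is 1 gene, filled for a KRAB pattern and open otherwise, and the black line is the median of the run; all 14 medians are below 0 in both panels, and Zfp810 lies apart at the left edge of the Runx1KO panel.

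Of 32 Zfp genes with a known role that were listed for description, 29 are members. In Runx1KO cells 1 of them was called higher (Zfp36) and 1 lower (Zfp703), and in ZebDKO cells 2 higher (Zfp36 and Zfp622) and 4 lower (Zfp365, Zfp503, Zfp809 and Zfp932), with a median of -0.45 in ZebDKO cells. The shares of all genes were 7.91% higher and 5.1% lower in Runx1KO and 7.48% and 7.27% in ZebDKO cells. Zfp809 and Zfp932 lost the call after correction for GC content and with median-ratio scaling, and Zfp365 and Zfp503 kept it under both. Zfp57 and Zfp445, KRAB proteins that keep imprints, differed from each other. Zfp57 read 10.0 ± 0.67 TPM in control, 20.2 ± 0.4 TPM in Runx1KO and 12.8 ± 0.3 TPM in ZebDKO cells, and Zfp445 read 16.0 ± 0.17, 16.3 ± 0.32 and 8.07 ± 0.83 TPM (mean ± SD, n = 3). Zfp568, the KRAB repressor of a placental Igf2 transcript, differed little, at 12 ± 0.57, 12.5 ± 0.36 and 11.0 ± 0.61 TPM. Zfp932, a KRAB gene that represses endogenous retroviruses, fell by 1.02 in ZebDKO cells, just past the limit, and read -0.38 after correction for GC content. Among the genes that act on RNA or ribosomes, Zfp593 read 60.1 ± 5.95, 90.3 ± 2.64 and 43.5 ± 2.4 TPM, and Zfp598, the ubiquitin ligase that senses collided ribosomes, 47.1 ± 2.42, 50.4 ± 1.97 and 58.3 ± 1.06 TPM. Zfp91, a ubiquitin ligase and the second most abundant member, read 222 ± 7.3, 214 ± 8.71 and 187 ± 6.66 TPM. The 10 members of highest mean level were Zfp36, Zfp91, Zfp330, Zfp703, Zfp622, Zfp511, Zfp358, Zfp335, Zfp706 and Zfp664, the last at 75.8 TPM.

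The genes through which KRAB proteins act were read from a list. Of 26 genes of this silencing machinery, limma called 0 in Runx1KO cells and 0 of 25 tested in ZebDKO cells. An unadjusted p under 0.05 was found for 17 and 20 of them. Each of these also had an adjusted p under 0.05, and went uncalled because its change did not pass the limit on size. The share of all genes with such a p is not given here, so these counts are not read as particular to the list. Over all genes 7.91% were called higher and 5.1% lower in Runx1KO and 7.48% and 7.27% in ZebDKO cells. No test of the list against all genes was made. The median changes were -0.08 and -0.11. Trim28, the corepressor that KRAB binds, read 351, 328 and 446 TPM in control, Runx1KO and ZebDKO cells (means, n = 3), and the H3K9 methyltransferase Setdb1 read 56.4, 34.1 and 45.4 TPM. The widest differences in ZebDKO cells were in Morc3, at -0.89, and in the NuRD helicase Chd3, at 0.75. Against Runx1KO cells Chd3 was called higher, and Dnmt3b and Fam208a lower.

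The promoter letters were searched last. RefSeq gives promoters of 300 bases for 223 members, 268 promoters in all. The Runx motif TGTGGT, read on both strands, was in 13.8% of them and in 16.8% of all 32851 promoters. The Zeb motifs CAGGTA and CAGGTG, counted apart and on both strands, were in 9.33% and 12.7% of the member promoters, against 12% and 20.2% of all. Among the 80 promoters of members called lower in ZebDKO cells these shares were 7.5% and 8.75%. The Zfp810 promoter held 1 CAGGTA match, on the opposite strand at position -247, and the promoters of Zfp185 and Zfp951 held none of the 3 motifs.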

How the data were processed

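Total RNA of 9 cultures was sequenced as poly(A) libraries, and ATAC-seq and ChIP-seq libraries were made from control and Runx1KO cells. Reads were trimmed with Trim Galore, aligned to mm9 with STAR and counted on RefSeq genes with featureCounts 1.6.2, and the authors deposited TPM with 1 decimal for 9 libraries, and TPM with 2 decimals for 6 of them in a second table. Gene lengths, strand and the treatment of reads that map to several genes are not given in the sources used here. TPM does not keep the read depth, so no counting interval is given. The authors also deposited peak lists made with MACS2. The ATAC-seq lists hold the authors' log2 fold changes and −log10 p-values of Runx1KO over control, which were not used. Their 3 classes and positions were used, and in the report they are called opening, closing and unchanged. The ChIP-seq lists, called on combined replicates, hold a score, the fold enrichment ratio over local background and −log10 p-values, all computed by the authors, and the fold and positions were used. Per the authors' methods, peaks of the Runx1 antibody in Runx1KO cells were removed.

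The members, the gene lists and the tests were chosen with earlier results of these data known. Groups came from the sample labels. Genes that reached 1 TPM in 3 or more of the 6 compared libraries entered limma 3.58.1 (limma-trend, R 4.3.3) as log2(TPM + 1), p-values were adjusted by Benjamini-Hochberg over all genes tested, and a gene was called when its log2 fold change lay beyond 1 in either direction with an adjusted p below 0.05. Changes on this scale understate those of low genes. The genes named are those lost or gained with their 3 neighbours on either side, the 8 largest called changes in each direction and comparison, the 10 highest members, the 3 on either side of the limit, the runs, and the lists of roles and of KRAB silencing. Members with a changed ATAC-seq peak and those near 3 TPM in only some lines were named after their values were seen. The script was tested on simulated data. KRAB, SCAN and C2H2 patterns were searched in translated GENCODE vM1 models, and GC content is that of the same transcripts. Promoters are RefSeq sequences listed for GRCm38.p6, placed in mm9 by exact match of all 300 bases (32525 of 32851 matched). Start sites count as having a peak within 1000 bases. The GC correction (lowess per library, span 0.3) was chosen after seeing the data. Other scalings, filters, pseudocounts, limits and fits without each library were tried. Counts, patterns and motifs were computed in Python 3.11.15 (pandas 2.3.3, scipy 1.17.1, numpy 2.4.6).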

Additional observations from a re-analysis of the deposited data

How the results depend on the processing

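The member counts called higher and lower stayed within 1.5 times the reported ones under other pseudocounts, filters, scalings and fits, with these exceptions. With a limit of 1.3-fold the counts were 24 higher and 94 lower in Runx1KO against control (8.82% and 34.6%, against 18.5% and 18.7% of genes). They were 10 and 196 in ZebDKO against control (3.7% and 72.6%, against 17.3% and 34.7% of genes). In ZebDKO against Runx1KO cells they were 17 and 165 (6.25% and 60.7%, against 18.4% and 33.5% of genes). GC correction, chosen after seeing the data, left 32 lower in ZebDKO against control (12.2%, against 4% of genes). Against Runx1KO cells it left 22 lower (8.3%, against 6.45% of genes). In the latter comparison quantile normalization left 28 of 272 members lower, against 907 of 13071 genes. The causes were not tested. The members lost in 1 line alone numbered 4 with a member limit of 1 TPM (Zfp229 and Zfp558 added), 1 with a lost limit of 0.1 TPM (Zfp810) and 7 with a lost limit of 1 TPM. The members gained numbered 2 with a member limit of 1 TPM (Zfp982 and Zfp985) and 1 with a lost limit of 1 TPM (Zfp951). Within 5000 bases of a start site, 16 members had a closing and 18 an opening ATAC-seq peak. When only the outermost start site of each member was read, 3 had a closing peak. The shares of all genes at these settings are not given, so these counts are not read as particular to the members. Leaving out each library in turn gave 6 to 8 higher and 14 to 16 lower in Runx1KO against control, 5 higher and 82 to 92 lower in ZebDKO against control, and 8 higher and 44 to 49 lower in ZebDKO against Runx1KO cells, with 2 lost, 0 gained and 265 to 272 members. Libraries with the same replicate number did not deviate together (correlations of -0.05 to 0.04 over 9 pairs), so the numbers do not pair them, and a fit with the replicate number as a block gave the same member counts, 7 and 14, 5 and 84, and 8 and 46. Steps of 0.1 TPM limit what can be said of members near 0, and clone cannot be told from genotype.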

Other observations

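Other zinc finger families of the same libraries were counted with the same limits. Of 47 genes past 3 TPM whose protein has a KRAB pattern but whose symbol is not a Zfp number, 46 were tested in ZebDKO against control cells, 28 were called lower (60.9%), and the median change was -1.17, beside 7.27% and -0.18 for all genes tested. Their transcripts were also poor in GC, with a median of 41.0%, and in the group of all genes poorest in GC 13.3% were called lower, with a median of -0.49. In Runx1KO cells 3 of the 47 were called higher and 3 lower, with a median of -0.26, beside 7.91% and 5.1% of all genes. Of 30 Zbtb genes, which pair zinc fingers with a BTB domain, 5 were called lower (16.7%) and 1 higher (3.33%) in ZebDKO cells, with a median of -0.26 and a median GC content of 50.1%, beside 7.27% lower and 7.48% higher of all genes. Of 15 Zkscan and Zscan genes, which carry a SCAN domain, 2 were called lower (13.3%), with a median of -0.55. These comparisons use the same control libraries as those of the Zfp genes, and the families were chosen with results of these data known.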
